A study of Mus musculus with 20 samples.

Results

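A set of 882 distal regions held peaks of histone H3 acetylation at lysine 27 (H3K27ac) in both nose and jaw of the mouse embryo at day e11.5. None of the e15.5 face libraries had a called peak in them. The regions were selected on measured values. Peaks of 10 H3K27ac ChIP-seq libraries were merged wherever they overlapped, and a merged region was kept if it lay more than 1 kb from every annotated transcript start, held a peak of the e11.5 medial or lateral nasal plate, held a peak of the e11.5 mandibular or maxillary process, and held no peak of any e15.5 library. The 882 members were 3.21% of the 27439 distal regions, which in turn were part of 42346 merged regions. Which of the e11.5 and e15.5 libraries had a peak is therefore a description of the choice, whereas no peak of e13.5 was required or barred. The e13.5 peaks did help to set the extent of the merged regions: without the e13.5 nose library 887 regions met the rule among 24410 distal regions. The number depended on the mandibular process library of e11.5, without which 439 regions met the rule.

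All tissue was dissected from WT embryos and holds mixed cell types. The 4 libraries of e11.5 covered the jaw by its mandibular and maxillary processes and the nose by its lateral and medial nasal plates, whereas e13.5 and e15.5 had 3 each, from the nose and the same jaw processes. Each tissue and stage had 1 library, and the number of embryos behind it is not given in the sources used here. No replicate error exists and no test between tissues or stages was possible, so the intervals printed are exact Clopper-Pearson 95% intervals that cover counting error only. The peak lists give no read depth. The shortest, of the e11.5 maxillary process, held 6571 peaks and the longest, of the e13.5 nose, 25941, and a longer list has more chances to hold a given region. For the 3 libraries of e15.5 the tissue in the sample label and the tissue in the peak names differ, and they were used here only together, as a set. The starts of Twist1, Prrx1 and Msx1, regulators of facial mesenchyme, held a peak in all 10 libraries, and that of Msx2 in 5. Alx4, taken as a nasal marker, held one in all 10, the jaw included, and so did not separate the tissues. Before e15.5, Hand2, a mandibular regulator, held one only in the mandibular process (both stages), and Pax7, a nasal marker, only in nasal tissue (all 3 libraries). Hand1 and Krt8 held none, and the epithelial gene Epcam held one in 6 libraries. No library had a peak at the starts of the endothelial genes Cdh5 and Kdr, the erythroid genes Gata1 and Hbb-bt, or Hoxa2, Hoxb2, Hoxa5 and Hoxd10, which are silent in the anterior face. In bulk tissue, fewer cells of a type and less acetylation per cell cannot be told apart.

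H3K27ac marks active promoters and enhancers, and is lost when an enhancer is switched off. Away from transcript starts it is widely used to find enhancers, the stretches of DNA that bind transcription factors and raise expression of a gene that may lie far away. The face forms from prominences around the primitive mouth. The nasal plates (medial and lateral) give rise to the nose and the middle of the upper lip, and the maxillary and mandibular processes to the upper and lower jaw. Most of their mesenchyme derives from neural crest cells that are still proliferating and unspecialised at e11.5, and that give rise to cartilage, bone and connective tissue by e15.5.

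Sequences of 7 members are shown, from GRCm38 (mm10), plus strand, 300 bp around the segment of the region that most libraries held. The first 3 are the members with a peak in all 7 libraries before e15.5, the only ones of the 882. The member inside Hdac9, nearest to the start of Twist1, and the member in an intron of Ednra were added after the values were seen because both genes are central regulators of facial mesenchyme. The last 2 show the sequence features described further on: they are the widest members with a peak in all 4 e11.5 libraries that hold both a TCF/LEF match and an E-box beside a homeodomain core. Capitals mark matches to the consensus sequences listed further on.
Igf2 member, chr7:142611152-142611451: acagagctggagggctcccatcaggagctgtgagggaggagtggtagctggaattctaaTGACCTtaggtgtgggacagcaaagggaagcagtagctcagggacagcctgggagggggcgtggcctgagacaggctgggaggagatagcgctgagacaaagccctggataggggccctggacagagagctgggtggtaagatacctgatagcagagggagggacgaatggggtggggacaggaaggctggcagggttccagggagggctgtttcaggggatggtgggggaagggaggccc
Smpd1 member, chr7:105549440-105549739: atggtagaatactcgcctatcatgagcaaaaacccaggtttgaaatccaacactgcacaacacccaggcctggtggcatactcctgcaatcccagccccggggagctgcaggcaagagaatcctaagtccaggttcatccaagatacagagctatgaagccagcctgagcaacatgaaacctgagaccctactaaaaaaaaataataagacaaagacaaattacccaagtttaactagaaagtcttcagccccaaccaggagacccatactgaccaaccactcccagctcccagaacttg
Rbms3 member, chr9:116556205-116556504: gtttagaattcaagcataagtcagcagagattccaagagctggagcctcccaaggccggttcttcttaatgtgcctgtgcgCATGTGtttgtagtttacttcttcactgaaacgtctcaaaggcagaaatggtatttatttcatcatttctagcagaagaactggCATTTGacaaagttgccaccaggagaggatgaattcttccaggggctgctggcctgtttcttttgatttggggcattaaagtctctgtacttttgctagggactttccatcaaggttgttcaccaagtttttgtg
Twist1 member, chr12:34051349-34051648: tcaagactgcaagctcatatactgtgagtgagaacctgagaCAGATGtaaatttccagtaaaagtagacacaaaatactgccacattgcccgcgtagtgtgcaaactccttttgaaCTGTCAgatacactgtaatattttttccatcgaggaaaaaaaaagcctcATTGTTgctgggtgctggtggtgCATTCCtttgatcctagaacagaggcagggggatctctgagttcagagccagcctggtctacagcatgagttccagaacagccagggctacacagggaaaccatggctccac
Ednra member, chr8:77715223-77715522: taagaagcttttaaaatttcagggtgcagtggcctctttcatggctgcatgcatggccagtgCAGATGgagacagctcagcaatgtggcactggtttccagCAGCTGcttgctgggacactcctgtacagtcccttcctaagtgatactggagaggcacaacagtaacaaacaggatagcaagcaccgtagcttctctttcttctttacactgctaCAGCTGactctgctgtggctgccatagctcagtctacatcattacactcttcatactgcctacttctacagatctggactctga
Slc38a4 member, chr15:97111467-97111766: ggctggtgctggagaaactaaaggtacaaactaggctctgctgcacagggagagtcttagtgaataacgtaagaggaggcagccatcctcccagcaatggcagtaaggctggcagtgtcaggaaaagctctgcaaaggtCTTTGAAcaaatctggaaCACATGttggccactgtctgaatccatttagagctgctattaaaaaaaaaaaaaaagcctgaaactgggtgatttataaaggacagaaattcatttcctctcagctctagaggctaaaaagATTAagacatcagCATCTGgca
Gorab member, chr1:163374500-163374799: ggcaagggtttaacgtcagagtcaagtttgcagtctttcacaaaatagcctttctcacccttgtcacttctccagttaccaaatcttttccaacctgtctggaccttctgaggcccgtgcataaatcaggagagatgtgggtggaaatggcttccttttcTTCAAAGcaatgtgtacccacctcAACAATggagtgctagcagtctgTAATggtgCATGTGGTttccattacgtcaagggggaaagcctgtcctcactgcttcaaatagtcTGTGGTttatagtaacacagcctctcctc

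Among the first 3, the Smpd1 member held no match to any of the consensus sequences in these 300 bp and the Igf2 member held 1, to the nuclear receptor site. The Twist1 member held an E-box of the type bound by Twist factors, and 39% of its window was annotated as repeat. The Ednra member held 3 E-boxes. The Slc38a4 member held a TCF/LEF match and an E-box with a homeodomain core beside it, and the Gorab member held such an E-box together with matches to the SOX and RUNX sites. A match describes letters only and is not evidence of binding.

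All 3 members present throughout e11.5 and e13.5 were highest in the nose at e13.5, and in 1 of them both nasal plates exceeded both jaw processes at e11.5. The region nearest to Igf2, which encodes a fetal growth factor, spanned 4673 bp at chr7:142608191-142612863, 40167 bp from its start and over an exon of a noncoding gene. Its fold enrichment over background, as given by the peak caller, at e11.5 was 6.42 and 6.18 in the medial and lateral nasal plates, and 3.49 and 3.58 in the mandibular and maxillary processes. At e13.5 it was 5.21 in the nose, 3.01 in the mandibular process and 2.61 in the maxillary process. The nasal values were the higher ones at both stages. The intergenic region 3768 bp from the start of Smpd1, which encodes acid sphingomyelinase, had values of 3.75, 4.51, 3.41 and 4.13 in the same order at e11.5, and 3.12, 2.98 and 2.71 at e13.5. The intergenic region nearest to Rbms3, which encodes an RNA-binding protein and lies 265092 bp away, had values of 4.4, 3.10, 3.10 and 4.50 at e11.5, and 4.80, 3.01 and 2.75 at e13.5. In neither did the nasal plates both exceed the jaw processes at e11.5.

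The e11.5 peaks of the members, which the rule used, are given as a description. The nasal lists were longer, with 20492 peaks of the medial and 21689 of the lateral plate beside 8402 mandibular and 6571 maxillary peaks. Of the 882 members, 766 had a peak in the lateral nasal plate, 739 in the medial nasal plate, 612 in the mandibular process and 439 in the maxillary process. The mandibular process with both nasal plates was the most common combination, with 289 members, followed by the maxillary process with both nasal plates (177) and all 4 libraries (157). In 880 of the 882 members the nasal and the jaw peak overlapped each other directly, by a median of 1136 bp. The ranks of these peaks come from the libraries the rule used and from lists of unequal length, and they too are a description of the choice. Ranked by -log10 q within a library, the median percentile was 55.4 in the medial and 56.3 in the lateral nasal plate, where peaks of other distal regions had 33.2 and 32.6. The percentiles were 30.2 in the mandibular and 29.8 in the maxillary process, beside 33.5 and 33.9 for other distal peaks. Median fold enrichment was 3.71 and 3.60 in the medial and lateral nasal plates, and 3.31 and 3.43 in the mandibular and maxillary processes.

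**Figure D1:**
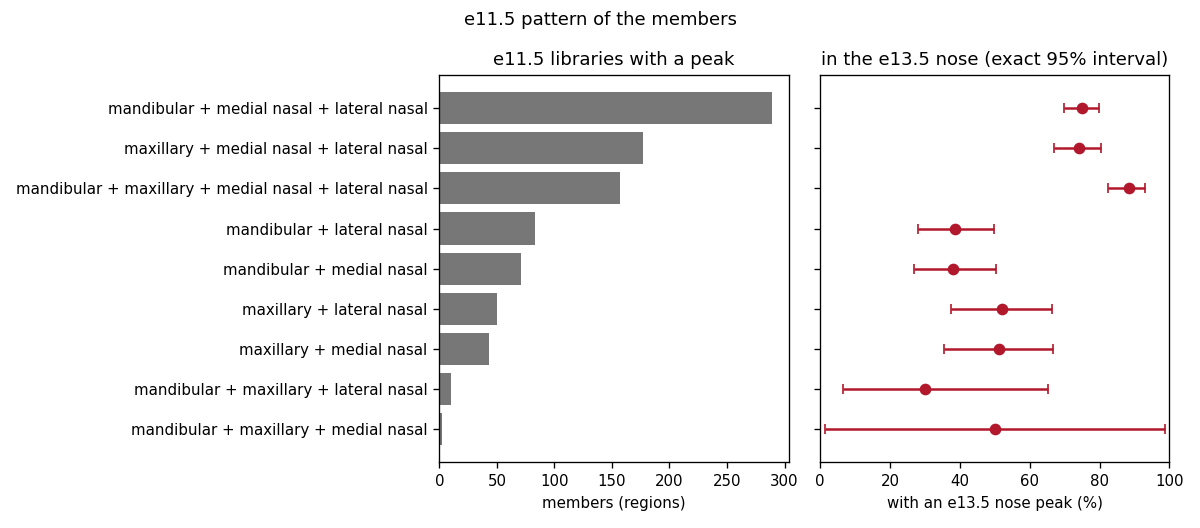
Number of members by the combination of e11.5 libraries with a peak (left, regions) and the percent of each that had a peak in the e13.5 nose (right, with exact 95% intervals). The 157 members with all 4 libraries had the highest share, 88.5%, and combinations with a single nasal plate had the lowest.

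With the full peak lists, most of the set still had a peak in the nose at e13.5 and little of it in the jaw. With lists of equal length the difference was far smaller, and its direction beside the mandibular process depended on the setting. A peak of the e13.5 nose lay in 598 of the 882 members, or 67.8% (64.6 to 70.9), beside 45.2% of all distal regions and 43.4% of the 15909 distal regions with any e11.5 peak. The e13.5 mandibular process had a peak in 23 members, 2.61% (1.66 to 3.89), beside 5.85% of all distal regions and 6.5% of those with an e11.5 peak. The e13.5 maxillary process had one in 59 members, 6.69% (5.13 to 8.54), beside 5.84% and 9.03%. Any of the 3 libraries had a peak in 604 members, 68.5% (65.3 to 71.5), beside 47.3% and 43.9%, and without the nose library this share was 8.46%. In 529 members the nose was the only tissue with a peak, 278 had none, 50 had the nose and the maxillary process, and 13 had the nose and the mandibular process. The jaw shares moved with the choice of late libraries. Without the e15.5 library labelled mandibular process, 1183 regions met the rule. Their maxillary share was 12.3%, above the 6.29% of all distal regions, and their mandibular share 4.65%, below 6.26%. Without the one labelled maxillary process, 1033 regions met it, and their mandibular share was also 4.65%, below 6.22%.

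The size of the gap between nose and jaw at e13.5 depended on the length of the peak lists, and so did its direction beside the mandibular process. The nose list held 25941 peaks and reached 12410 distal regions, whereas the mandibular list held 6887 peaks and reached 1604 and the maxillary list held 10753 and reached 1602. When each e13.5 list was limited to its 6887 peaks with the highest -log10 q, an alternative chosen after seeing the data, the nose share of the same 882 members was 1.59% (0.870 to 2.65) beside 3.52% of all distal regions, the mandibular share stayed at 2.61%, and the maxillary share was 0.680% beside 2.01%. With equal e13.5 lists the nose share was thus lower than the mandibular share (with overlapping intervals) and still higher than the maxillary share. It lay below the background rather than above it. When all 10 lists were limited to 6571 peaks and the rule was applied anew, 715 regions met it, 271 of them overlapping a member. Their shares were 19% in the nose, 16.2% in the mandibular process and 7.13% in the maxillary process. All distal regions had 13.8%, 23.3% and 7.91%, and the nose share was here the highest of the 3. The member peaks of the full e13.5 nose list had a median percentile of 40.8 within it, where peaks of other distal regions had 32.3. In the jaw lists of e13.5 the few member peaks ranked lower than other distal peaks. Their median percentile was 16.0 beside 24.4 in the maxillary list (60 member peaks) and 27.3 beside 29.1 in the mandibular list (23).

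**Figure D2:**
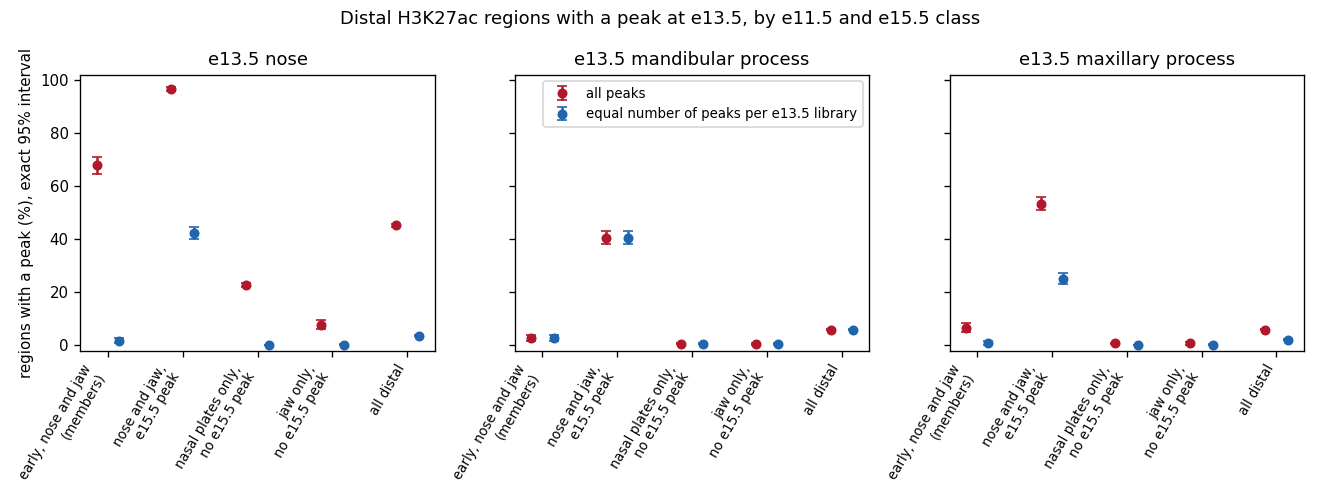
Percent of regions with a peak in each e13.5 library (exact 95% intervals) for the members, for 3 other classes of distal regions and for all distal regions, with all peaks (red) and with the 6887 highest peaks of each e13.5 list (blue). With all peaks, 67.8% of members were present in the nose, between 96.8% of the regions that kept an e15.5 peak and 22.6% of those found only in the nasal plates; with equal lists the member share was 1.59%.

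The members lay between the classes most like them. Regions shared by nose and jaw at e11.5 that did have an e15.5 peak (1680) were present at e13.5 in 96.8% in the nose, 40.5% in the mandibular process and 53.5% in the maxillary process. Regions found in the nasal plates only and without an e15.5 peak (9364) were present in 22.6%, 0.641% and 0.726%, and regions found in the jaw only and without an e15.5 peak (1032) in 7.56%, 0.388% and 0.678%. Under the equal e13.5 lists the first of these classes was present in 42.3% in the nose and the other two in 0.0641% and 0%. Width moved with these values. Members had a median width of 2189 bp, beside 3350.5 bp, 837 bp and 361 bp in the 3 classes and 1161 bp for all distal regions. Among members whose e11.5 peaks spanned 1 to 2 kb, 61.1% (209 of 342) had a nose peak, beside 35.6% of nasal-only and 55.2% of all distal regions with e11.5 peaks of that span. In the band from 2 to 3 kb the shares were 72.0% (236 of 328), 53.9% and 76.5%, so that the members lay below the regions with any e11.5 peak there.

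Presence at e13.5 followed the number of e11.5 libraries. In the nose it was 43.3% for members with 2 e11.5 libraries (247), 73.6% for those with 3 (478) and 88.5% for those with 4 (157). In the maxillary process it was 1.62%, 5.65% and 17.8%, and in the mandibular process 0.405%, 3.14% and 4.46%. The intervals did not overlap between the 3 steps in the nose, and the median width rose alongside from 1607 to 2285.5 and 2733 bp, the part of which was not tested. Members with a peak in both nasal plates were present in the e13.5 nose in 78.2% (74.7 to 81.4), beside 42.9% (36.7 to 49.1) with 1 plate. This split nearly coincides with the step from 2 to 3 libraries. By the rule, members with 2 libraries had 1 nasal plate, and most of those with 3 had both (289 and 177 members). Of the few with 3 libraries and 1 plate, 3 of 10 (lateral) and 1 of 2 (medial) had a nose peak. Within the jaw, members with an e11.5 maxillary peak had an e13.5 maxillary peak in 9.57% (6.98 to 12.7) and those without in 3.84% (2.25 to 6.07). For the mandibular process the shares were 2.94% (1.75 to 4.61) and 1.85% (0.604 to 4.27), with overlapping intervals.

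Members were more often intergenic than all distal regions, but about as often as the regions shared by nose and jaw that kept an e15.5 peak (47.6%). Of the 882, 429 (48.6%, 45.3 to 52.0) overlapped no gene, 339 (38.4%) lay in introns and 114 (12.9%) touched an exon, beside 42.2%, 47.0% and 10.8% of all distal regions. A protein-coding start lay within 100 kb of 651 members (73.8%, 70.8 to 76.7), beside 79.0% of all distal regions. A member was not always far from acetylation at e15.5: the nearest e15.5 peak was a median of 22264 bp away, within 1 kb of 41 members and within 10 kb of 269. At the other side of the rule, the members closest to the 1 kb limit lay 1056 bp (nearest gene Gm9747), 1069 bp (Kcnj15) and 1115 bp (P2rx7) from a transcript start, and the closest regions left out lay at 954 bp (Gtf2a1l), 918 bp (Tmc1) and 906 bp (BC034090).

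The 651 members near a protein-coding start were spread over 579 genes, of which 516 were nearest to 1 member only, 56 to 2, 5 to 3 and 2 to 4. Spock1, which encodes an extracellular matrix proteoglycan, and Glis1, a zinc finger factor related to the GLI proteins, had 4 each. Of the Spock1 members, the intergenic one 20693 bp from its start, at chr13:57929025-57932625, was among the stronger regions of the set. Its fold enrichment at e11.5 was 8.42 and 9.22 in the medial and lateral nasal plates and 5.17 and 6.64 in the mandibular and maxillary processes. At e13.5 the nose had 5.32, the maxillary process 3.07 and the mandibular process no peak. The other 3, inside the gene, had values from 2.75 to 4.0 in the e11.5 libraries with a peak and no e13.5 peak. None of the 7 distal regions nearest to Spock1 held an e15.5 peak, and no library had a peak at its start. The 4 Glis1 members behaved differently: all were intronic, all had an e13.5 nose peak (2.76 to 3.77) and none a jaw peak, and 3 of the 16 distal regions nearest to Glis1 did hold an e15.5 peak.

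Of the 5 genes with 3 members, Scube1, a secreted regulator of growth factor signalling, had an e13.5 nose peak in all 3, and Exoc6b, a subunit of the exocyst, in none. The Exoc6b member at chr6:84958469-84961193 was nonetheless strong at e11.5, with 6.20 and 5.61 in the medial and lateral nasal plates (percentiles 83.6 and 87.3 of their lists) and 3.94 and 4.4 in the mandibular and maxillary processes. Tenm4, which encodes a teneurin adhesion protein, had 3 members among 36 distal regions, 1 of them with a nose peak at e13.5. Bcas3 and Gm11733 had 1 and 2 members with a nose peak. Of the 56 genes with 2 members, only those with the largest summed width of members are named here. Members nearest to Gpc1, Crabp1, St6galnac3, Gadd45g, Scml4, Frmd4a, Bach2, Spsb1, Clic5 and Ica1 all had an e13.5 nose peak. Those nearest to Zfhx3, Smyd3 and Abcg8 had it in 1 member each. Members whose e11.5 peaks spanned at least 3 kb had a nose peak in 85.5%, beside 38.3% of those below 1 kb. The named genes therefore do not stand for all 56. A maxillary peak at e13.5 was present at 1 member each of Crabp1, Frmd4a, Bach2 and Clic5, and a mandibular one at the other Crabp1 member. The 8 widest members with all 4 e11.5 libraries, from 4673 to 5808 bp, all had an e13.5 nose peak. Those near Pla2g16 (4921 bp), Gpc1 (4739 bp) and Igf2 were among them, and the widest had its nearest protein-coding start, of Cops8, 158443 bp away.

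Genes that pattern the lower jaw were nearest to 6 members, 0.680% (0.25 to 1.47), where all distal regions had 0.135% and the 3 other classes between 0.0854% and 0.194%. The 6 members lay nearest to only 4 genes, and the rule itself required an e11.5 jaw peak. The intervals are not adjusted for the 26 gene lists looked at. Endothelin signalling through Ednra specifies mandibular identity, and Hand1, Gsc and Barx1 are transcription factors that act in the mandibular process. Barx1 had 2 members. The one at chr13:48715777-48718944, 52779 bp from its start, had a fold enrichment of 7.53 and 4.90 in the medial and lateral nasal plates, 5.09 in the mandibular and 4.53 in the maxillary process at e11.5 and 3.83 in the e13.5 nose. The second, 18967 bp away, had 4.17 in the mandibular process, 2.79 laterally in the nose and no e13.5 peak. None of the 5 distal regions nearest to Barx1 held an e15.5 peak, and no library had a peak at its start. Ednra had 2 intronic members with different jaw partners. The one at chr8:77697128-77699102 had a mandibular peak (3.38) and the one at chr8:77713859-77716337 a maxillary peak (3.44), and only the former had a nose peak at e13.5 (3.34). The Gsc member had 2.72 in the lateral nasal plate with 3.52 in the mandibular process, and the Hand1 member, named after its values were seen, 2.84 with 3.14 in the maxillary process. So, of these 6 regions, the e11.5 jaw peak was mandibular only in 3, maxillary only in 2 and in both processes in 1. With all 10 lists limited to the same number of peaks the share was 0.280% (0.0339 to 1.01) beside 0.218%, and among the 157 members with all 4 e11.5 libraries it was 0.637% (0.0161 to 3.50), so neither interval lay above the share of all distal regions.

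Genes of the Wnt pathway, which controls growth and outgrowth of the prominences, were nearest to 10 members, 1.13% (0.545 to 2.08) beside 0.685% of all distal regions. Regions shared by nose and jaw that kept an e15.5 peak had 1.07%. Ror1, a Wnt receptor, had 2, and both had a nose peak at e13.5. The one at chr4:100168592-100172406 had 4.86 and 4.25 in the medial and lateral nasal plates and 3.66 in the mandibular process at e11.5, then 3.63 in the nose and 3.67 in the mandibular process at e13.5, and none of the 6 distal regions nearest to Ror1 held an e15.5 peak although its start was acetylated in all 10 libraries. Rspo1, a secreted Wnt activator, had 1 member of 5604 bp, and the start of the gene held a peak of the medial nasal plate and of the e13.5 nose only. Bcl9, a coactivator of beta-catenin, had 1 member with peaks in all 4 e11.5 libraries and in the e13.5 nose (3.53) and maxillary process (3.05). Named after their values were seen, the members of Lef1 and Tcf7, which encode the factors that bring beta-catenin to DNA, both joined the lateral nasal plate (3.91 and 3.42) with the maxillary process (3.97 and 4.09), and both had a nose peak at e13.5 (4.85 and 3.06). The Lef1 member also had a maxillary peak at e13.5, and the Tcf7 member had no jaw peak at that stage.

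Other pathways were represented by fewer members. Regulators of facial mesenchyme were nearest to 7 members (0.794%, 0.320 to 1.63, beside 0.463%, and 0.595% of regions shared by nose and jaw that kept an e15.5 peak). They included 2 intronic members of Foxp1, 1 member 91397 bp from the start of Twist1 inside Hdac9, with 3.10 in the maxillary process, 2.93 laterally in the nose and 2.77 in the nose of e13.5, and 1 member 1191 bp from Msx2 with 5.08 and 4.70 in the medial and lateral nasal plates, 3.36 in the maxillary process and 4.50 in the e13.5 nose. BMP and TGF-beta genes had 5 (0.567% beside 0.521%), among them Bambi, Smad3 and Smad6. Genes of endothelin, PDGF and Notch signalling had 4 (0.454%, 0.124 to 1.16, beside 0.208%), and regions shared by nose and jaw that kept an e15.5 peak had 0.476%. Of the 4 members, 2 lay at Ece1, the enzyme that matures endothelin, and 1 each at the Notch ligand Jag1 and the Notch target Hey2. Crabp1, which binds retinoic acid, accounted for both members of the retinoic acid genes (0.227% beside 0.251%), each wider than 5 kb. Guidance and adhesion genes had 8 (0.907% beside 0.831%), including Tenm4, Slit3 and Ephb1. Of the early growth genes, 5 members (0.567%, 0.184 to 1.32, beside 0.281%) lay nearest to Gpc3 (2), Igf2, Dnmt3a and Hmga2. Regions shared by nose and jaw that kept an e15.5 peak had 0.536%. The wider Gpc3 member had a peak in all 4 e11.5 libraries, from 3.07 to 4.14, and neither had any e13.5 peak. Nearest to Hmga2, a chromatin protein of undifferentiated cells that was named after its values were seen, lay 2 further members beyond the 100 kb limit, at 110911 and 169438 bp.

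**Figure D3:**
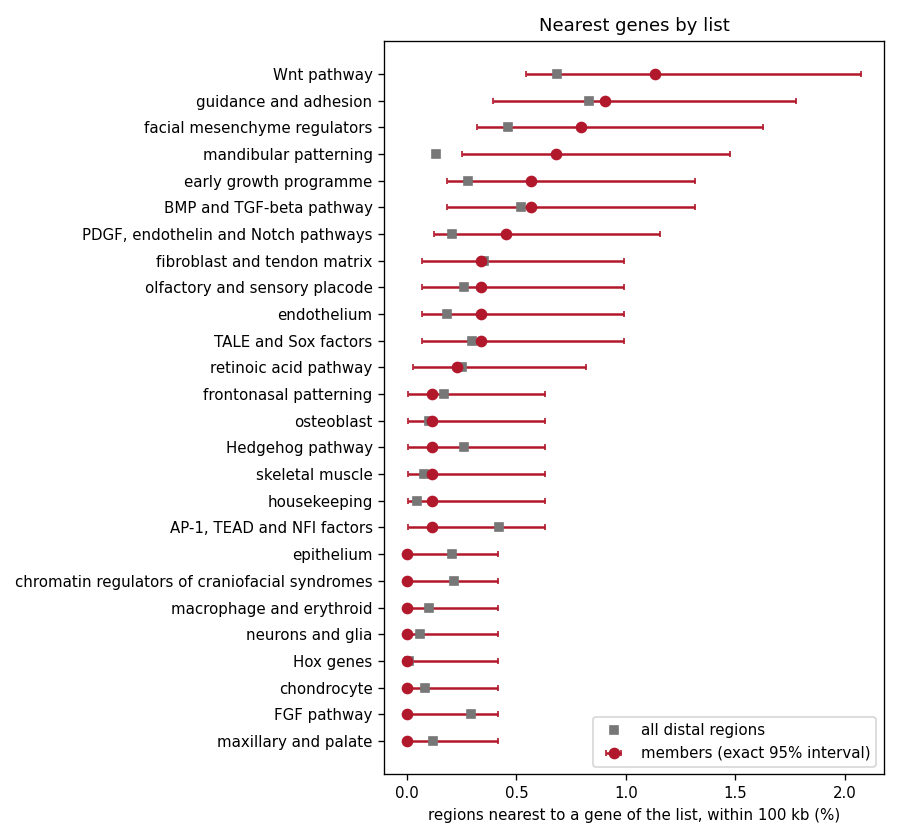
Percent of members (red, exact 95% interval) and of all distal regions (grey) whose nearest protein-coding start within 100 kb belonged to each of the 26 gene lists. The mandibular patterning list was the only one whose interval lay wholly above the share of all distal regions, 0.680% beside 0.135%. The intervals are not adjusted for the 26 lists.

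Several lists that describe other cell types had no member: chondrocyte, epithelium, neurons and glia, and macrophage and erythroid genes were nearest to 0 of 882, for which the exact upper bound is 0.417%, beside 0.0802%, 0.208%, 0.0583% and 0.0984% of all distal regions. The same was true of the FGF pathway (0.292% of all distal regions), the maxillary and palate genes (0.120%), the chromatin regulators (0.215%) and the Hox genes (0.0109%). These shares of all distal regions lie below the bound, so the counts of 0 do not separate members from background. Endothelial genes had 3 members, at Ets1, Erg and Pecam1, olfactory and placode genes 3, at Ebf1, Eya2 and Emx2, and fibroblast and tendon matrix genes 3, at Fbn2, Col6a1 and Tnc. TALE and Sox factors had 3, at Sox5, Sox6 and Pknox2. Single members lay nearest to Pax3 (in the frontonasal and the muscle list), Cdon, Col1a2, Wwtr1 and Eef1a1. The shares of all distal regions lay within the intervals of each of these lists.

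Most of the nearest genes had a peak at a start at e15.5, when the members, by the rule, held none. Of the 579 genes, 393 (67.9%, 63.9 to 71.7) had a peak at a start in at least 1 e15.5 library, and 402 (69.4%) in at least 1 e11.5 library. The corresponding shares of the 5739 genes nearest to any distal region with an e11.5 peak were 63.9% and 62.1%. A peak at the start at e11.5 and none at e15.5 was found for 51 genes (8.81%, 6.63 to 11.4), beside 6.38% of the 5739, 3.82% of the genes nearest to regions shared by nose and jaw that kept an e15.5 peak, and 7.45% of those nearest to jaw-only regions. Another distal region with an e15.5 peak had the same nearest gene for 385 of the 579 genes (66.5%, 62.5 to 70.3), beside 61.2% of the 5739.

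The sequence of the members was searched for 24 short consensus sequences and 1 composite, in 500 bp around the segment held by most libraries and on both strands. They were the E-box CANNTG with 4 forms that it contains, namely the Twist type CATCTG, a further Twist type CATATG, the Snail and Zeb type CACCTG and the myogenic type CAGCTG; the homeodomain sites TAATTA and CAATTA and the Pitx and Otx site GGATTA; and AP-2 (GCCNNNGGC), SOX (AACAAT), TCF/LEF (TTCAAAG), forkhead (GTAAACA), TEAD (GGAATG), AP-1 (TGANTCA), GLI (GACCACCCA), nuclear receptor (AGGTCA), MEIS and TGIF (TGACAG), PBX (TGATTGAT), the GATA family (AGATAA), ETS (GGAAGT), NFI (TTGGCA), RUNX (TGTGGT), the sine oculis factors (GGTATCA) and T-box (GGTGTGA) sites. The composite was CANNTG with TAAT or ATTA at most 10 bp away on either side. The window of 500 bp was the same for all regions, but the lower quartile of width was 448 bp for all distal regions and 1618.5 bp for members. Jaw-only regions had a median width of 361 bp. The windows of many other regions thus reached beyond the region, and the part of this was not tested. Base composition was close to that of all distal regions, with a median GC content of 47.4% beside 47.2% and a median CpG ratio (observed over expected) of 0.241 beside 0.220.

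E-boxes with a homeodomain core and TCF/LEF sites were more frequent in members than in all distal regions. The composite was present in 303 members, 34.4% (31.2 to 37.6), beside 27.4% of all distal windows. It was present in 24.9% of regions shared by nose and jaw that kept an e15.5 peak, 30.1% of nasal-only and 31.9% of jaw-only regions, the last within the interval of the members. The TCF/LEF consensus, read by the transcription factors of the Wnt pathway, was present in 154 members, 17.5% (15 to 20.1), beside 12.7% of all distal regions and 12.6%, 12.8% and 13.3% in the same 3 classes. Of the Twist-type E-boxes, CATCTG was present in 44.0% of members (40.7 to 47.3) beside 38.7%, with 42.7% in regions that kept an e15.5 peak. CATATG was present in 13% (10.9 to 15.4) beside 10.8%. The nasal-only (11.7%) and jaw-only (11.4%) regions lay within that interval, and regions that kept an e15.5 peak had 10.3%. The CAGCTG form stood at 35.5% (32.3 to 38.7) beside 30.4%, no higher than the 36.4% of regions that kept an e15.5 peak, and any E-box at 96.7% beside 93.8%. The sine oculis consensus was in 37 members, 4.2% (2.97 to 5.74) beside 2.73%. Nasal-only regions, at 3.14%, lay within that interval, and regions that kept an e15.5 peak (2.26%) and jaw-only regions (2.91%) lay below it.

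AP-1, NFI, GATA and T-box sites were less frequent. AP-1 was present in 94 members, 10.7% (8.70 to 12.9), beside 15.6% of all distal regions and 14.3% to 15.2% of the 3 classes. The NFI site was present in 22.9% (20.2 to 25.8) beside 27.7%, but the 3 classes, at 24.5% to 24.9%, lay within that interval. GATA was present in 17.9% (15.4 to 20.6) beside 21.6%, and T-box in 4.42% (3.16 to 6.0) beside 6.51%, with 5.95% in regions that kept an e15.5 peak. For GATA the regions shared by nose and jaw that kept an e15.5 peak were lower still, at 14.9%. The intervals of the other 14 sequences included the share of all distal regions. They include the homeodomain sites alone (for CAATTA 16.8% beside 16.1%), TEAD (30.8% beside 29.7%) and AP-2 (13.8% beside 14.7%). These intervals are not adjusted for the 25 sequences looked at. Between members with and without an e13.5 nose peak, the composite stood at 33.3% and 36.6%, TCF/LEF at 16.7% and 19%, SOX at 23.2% and 30.6% and CATATG at 11.2% and 16.9%.

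**Figure D4:**
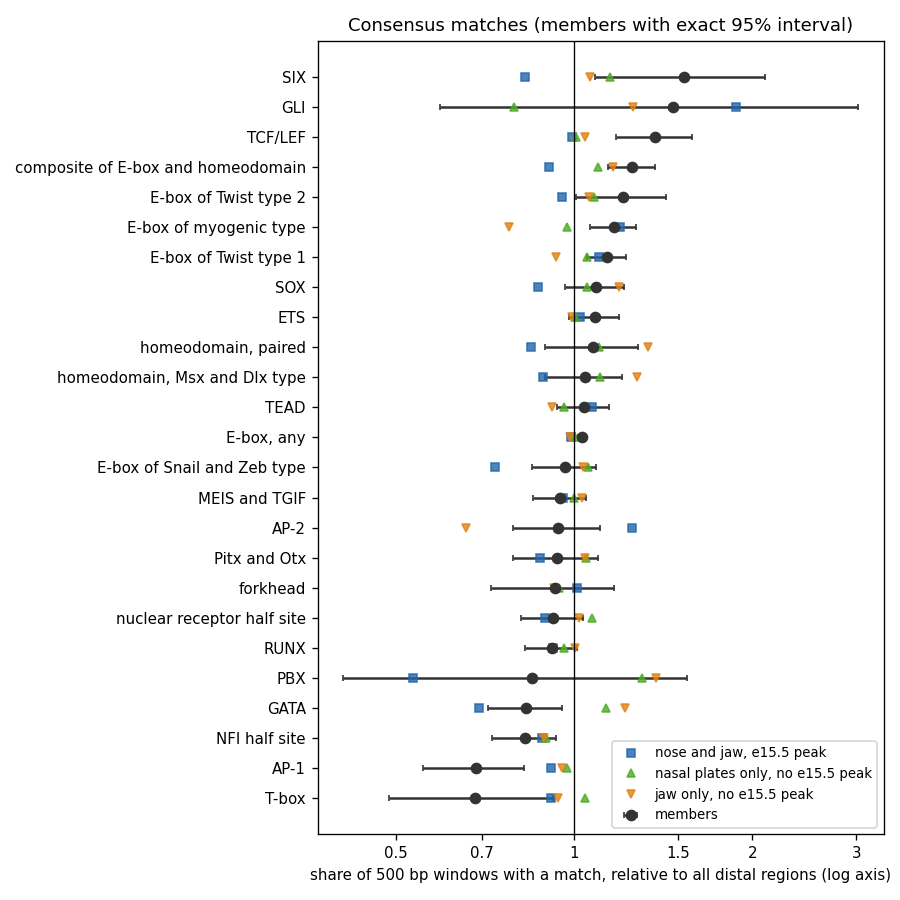
Share of 500 bp windows with each consensus sequence relative to all distal regions (log axis, 1 is equal) for the members (black, exact 95% interval) and 3 other classes of distal regions. TCF/LEF stands at 1.37 and the E-box and homeodomain composite at 1.25 times all distal regions in members, and AP-1 at 0.682 times.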

How the data were processed

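H3K27ac ChIP-seq peak lists of 10 mouse embryonic face libraries were used (4 of e11.5, 3 of e13.5, 3 of e15.5). Per the submitters' processing notes the build was mm10 and the tools were MACS2 (2.2.4), BWA (0.7.7) and SAMtools (0.1.19). Each deposited broad peak list came from 1 library and gives a score, a fold enrichment (ratio) over background, and a -log10 p-value and -log10 q-value per peak, as the authors' peak caller wrote them; the lowest -log10 q in the lists is 1.3. The input libraries were not analysed here. Read depth is unknown.

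From the lists, the 144852 peaks of the 19 autosomes, X and Y were merged where they overlapped or touched. A region counted as present in a library if a peak of it lay in the region, and as distal if it lay more than 1 kb from all 132629 starts of GENCODE vM21 transcripts. The nearest protein-coding start within 100 kb gave the gene. Fold enrichment is that of the library's peak with the highest -log10 q in the region. Promoter peaks overlap the window of 1 kb around a gene's starts. Consensus sequences were matched as regular expressions in GRCm38. Merging, the rule and the matching were tested on simulated data with known answers. Shares carry exact Clopper-Pearson 95% intervals; no test was made, since each tissue and stage has 1 library and regions are not replicates. Members, gene lists and consensus sequences were chosen with earlier results of these data known. Genes were named by rule: the 20 nearest to most members, up to 3 per list, the 8 widest members in all 4 e11.5 libraries, the members in all 7 early libraries, tissue markers and 3 members on each side of the distance limit. Alternatives changed the q threshold, list length, distance limit, merging, overlap, e15.5 exclusion, e11.5 requirement and sequence window, and left out each library. Python 3.11.15, pandas 2.3.3, numpy 2.4.6, scipy 1.17.1 and matplotlib 3.10.9 were used.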

Additional observations from a re-analysis of the deposited data

How the results depend on the processing

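No paired analysis was possible because each tissue and stage had 1 library. The number of members and the 4 shares at e13.5 kept their values within 1.5 times (the number) or within the main interval (the shares) with a 2.5 kb distance limit, with peaks up to 1 kb apart merged, with no e15.5 peak allowed within 1 kb, with directly overlapping nasal and jaw peaks, and with at least 25% of the region covered. With a -log10 q of at least 2, 471 regions met the rule. Their shares were 75.6% in the e13.5 nose, 9.34% in the maxillary process and 76.0% in any e13.5 library. The shares of all distal regions rose too, to 58.2%, 7.15% and 58.9%, from 45.2%, 5.84% and 47.3% in the main setting. With a peak required in all 4 e11.5 libraries, 157 remained, with 88.5% in the nose, 4.46% in the mandibular process, 17.8% in the maxillary process and 89.2% in any. All distal regions, unchanged by this setting, had 45.2%, 5.85%, 5.84% and 47.3%. With 6571 peaks in every list, 715 regions met the rule, of which 271 overlapped a member (37.9% of the 715 and 30.7% of the 882). Their shares were 19% in the nose (13.8% of all distal regions), 16.2% in the mandibular process (23.3%) and 31.2% in any (30.1%). With members unchanged and 6887 peaks per e13.5 list, the shares were 1.59% in the nose and 4.54% in any library (7.58% of all distal regions), both below the background where the full lists gave more, and 0.680% in the maxillary process. These alternatives remove the weaker peaks of the longer lists by construction. Leaving out 1 library at a time gave 439 to 1183 members and shares of 67.6% to 75% in the nose, 2.48% to 4.65% in the mandibular process, 6.69% to 12.3% in the maxillary process and 8.46% to 75.5% in any e13.5 library, the lowest without the nose library (10.3% of all distal regions), which holds nearly all of these peaks. The shares of all distal regions ranged from 45.3% to 51.9%, 5.85% to 6.70%, 5.92% to 6.70% and 10.3% to 54.3% in the same order. For the consensus sequences, 45 of 75 values stayed within the main interval and, of the 11 whose interval lay outside the share of all distal regions, none turned its direction; a window of 300 bp, being shorter, lowered all 25 shares and took 23 out of the main interval. For the gene lists, 63 of 78 values stayed within the main interval. Read depth, which the lists do not give, limits what absence of a peak can show.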

Other observations

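Of the 51 genes nearest to a member that had a peak at a start at e11.5 and none at e15.5, 9 had 2 or more members: Glis1 with 4, and Crabp1, Scml4, Clic5, Ica1, Nav1, Kifap3, Mgst2 and Plekha2 with 2 each. Scml4 and Nav1 had the start acetylated in all 4 e11.5 libraries, and both held a peak there in the nose at e13.5 and in neither jaw process. Crabp1, Plekha2 and Adamts20, an enzyme that cleaves extracellular matrix, had it in both nasal plates and in the e13.5 nose. Sox8, a factor of the neural crest, had it in the lateral nasal plate alone, and the forkhead gene Foxl2 in the lateral nasal plate and the maxillary process. These genes, other than Glis1, Crabp1, Scml4, Clic5 and Ica1, were chosen after their values were seen.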
